A study of Mus musculus with 24 samples.

Results

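The Hox cluster genes are the mouse homeobox genes of the Hoxa, Hoxb, Hoxc and Hoxd clusters, and they were followed here in differentiating mouse embryonic stem cells (mESCs) depleted of Smarcc1 or Smarca4. Members were the entries of the expression table named Hox, a cluster letter and a paralog number, which gave 39 of 25965 entries, and 38 of these are described. Hox genes encode homeodomain transcription factors that give cells along the head-to-tail axis and the limbs their positional identity. Within a cluster the genes lie in the order of their paralog numbers, and in the embryo low-numbered genes are switched on first and furthest towards the head, an order called collinearity. In undifferentiated mESCs the clusters are held under Polycomb repression, trithorax-group proteins and retinoic acid, Wnt and Fgf signals favour their transcription, and Smarcc1 and Smarca4 (a core subunit and an ATPase of the BAF nucleosome remodelling complex) belong to the wider machinery that sets chromatin accessibility.

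All cells were male C57/Bl6 mESCs that were expanded in 2i medium with leukaemia inhibitory factor, which holds them undifferentiated, and weaned into a serum medium without these additions (DME HiHi) to differentiate. Each culture was transduced with a short hairpin RNA on day 2 of differentiation and selected with puromycin from day 3, the controls included, and RNA was sequenced on days 4, 5, 6 and 7. Smarcc1 knockdown used the hairpins Smarcc1.6 and Smarcc1.7, Smarca4 knockdown used Smarca4.4 and Smarca4.6, and the control was the nonsilencing hairpin Nons. With 1 library per hairpin and day this made 8 Smarcc1 knockdown, 8 Smarca4 knockdown and 4 Nons libraries, and 4 further samples, Nons replicate 2, were not analysed here. The genotype label of the Smarca4 libraries names a Smarcc knockdown whereas their titles name Smarca4, and the titles were followed. The replicates of a knockdown are its 2 hairpins, so p-values measure the spread between hairpins, and Nons, with 1 library per day, was assumed to vary as the hairpin pairs do.

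Values are the deposited log2 rpm, reads scaled to the library total. A gene without reads carries the value of 0.9 of a read, so whole reads and library totals could be recovered. Totals ranged from 6829596 reads in Smarca4.4 on day 5 to 27472885, the second smallest being 15717152, and 3 reads, the limit taken for a gene that can be told from none, were worth 0.109 to 0.439 rpm. Smarcc1 was at 23.7 to 60.1% of same-day Nons in the Smarcc1 libraries and Smarca4 at 21.6 to 55.3% in the Smarca4 libraries, lower in 8 of 8 libraries each. The 8 pluripotency markers (Pou5f1, Nanog and Sox2 among them) summed to 3943 rpm in Nons on day 4 and 911 rpm on day 7, so the cells carried the markers of their label and these declined with differentiation. In bulk RNA, a change in how many cells express a Hox gene and a change in its RNA per cell cannot be told apart.

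Promoter sequences are shown for 4 members that take different courses below. Hoxd8 had the largest rise, and Hoxd13 had the highest mean log2 rpm and no call over time in the mean over groups. Hoxa7 declined, and Hoxa5 was read in the knockdowns but hardly in Nons. The sequences are the RefSeq windows from 250 bases before to 50 after the start on GRCm38.p6. Each is written 5′ to 3′ in the direction of transcription. Hoxd8 lies at chr2:74704365-74704664 and Hoxd13 at chr2:74667975-74668274, both on the plus strand, and Hoxa7 at chr6:52218524-52218823 and Hoxa5 at chr6:52204538-52204837, both on the minus strand. Capitals mark matches on either strand to one of the following motifs. The TATA box was searched as TATAAA. The core bound by Cdx proteins was searched as TTTATG. The Meis motif was searched as TGACAG. The motif of Pbx with a Hox protein was searched as TGATTNAT. The half-site of nuclear receptors was searched as AGGTCA.
Hoxd8: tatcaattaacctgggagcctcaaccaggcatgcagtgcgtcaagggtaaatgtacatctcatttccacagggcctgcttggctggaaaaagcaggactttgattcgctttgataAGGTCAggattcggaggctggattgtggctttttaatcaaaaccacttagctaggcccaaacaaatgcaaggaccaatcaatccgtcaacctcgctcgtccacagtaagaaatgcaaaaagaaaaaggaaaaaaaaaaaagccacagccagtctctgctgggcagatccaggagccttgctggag
Hoxd13: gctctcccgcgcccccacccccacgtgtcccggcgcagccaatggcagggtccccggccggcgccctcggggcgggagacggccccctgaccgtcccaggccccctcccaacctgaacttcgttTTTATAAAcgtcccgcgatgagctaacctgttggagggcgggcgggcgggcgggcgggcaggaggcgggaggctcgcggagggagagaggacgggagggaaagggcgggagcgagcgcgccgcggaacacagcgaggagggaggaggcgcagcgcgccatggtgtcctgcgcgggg
Hoxa7: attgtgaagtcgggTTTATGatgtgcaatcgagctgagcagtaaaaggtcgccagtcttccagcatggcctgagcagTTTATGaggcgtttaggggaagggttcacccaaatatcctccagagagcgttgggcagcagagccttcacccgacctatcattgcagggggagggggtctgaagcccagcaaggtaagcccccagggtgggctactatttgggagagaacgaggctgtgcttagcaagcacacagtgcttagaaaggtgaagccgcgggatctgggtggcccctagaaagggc
Hoxa5: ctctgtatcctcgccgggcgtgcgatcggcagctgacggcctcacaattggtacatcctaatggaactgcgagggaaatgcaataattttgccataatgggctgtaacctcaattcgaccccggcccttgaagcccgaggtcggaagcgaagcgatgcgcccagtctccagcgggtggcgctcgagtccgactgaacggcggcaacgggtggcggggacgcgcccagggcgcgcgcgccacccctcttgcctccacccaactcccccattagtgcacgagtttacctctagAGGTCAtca
The capitals show 1 half-site each in Hoxd8 and Hoxa5, a pair of Cdx cores in Hoxa7 and a TATA box in Hoxd13 that reads on both strands. Of the 38 genes, 22 had an entry, with 24 promoters among 32851 in the table. The half-site occurred in 7 of the 24 Hox promoters (29.2%, against 16.3% of all promoters), the Cdx core in 5 (20.8% against 11.9%), the TATA box in 4 (16.7% against 13.6%), the Meis motif in 2 (8.33% against 19.2%) and the Pbx with Hox motif in 2 (8.33% against 3.22%). CCAAT, left in lower case, occurred in 15 (62.5% against 37.4%), and the median GC content of the Hox promoters was 57.7% against 52.7%. These shares describe letters in a window, and the Hox clusters share ancestry, so Hox promoters are not independent of each other.

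The Hox clusters were read weakly but in all 4 places. On mm10 the genes described span chr6:52162351-52260880 in Hoxa with 10 genes, Hoxb chr11:96194316-96368256 with 10, Hoxc chr15:102921103-103036843 with 9 and Hoxd chr2:74668310-74765143 with 9. At least 3 reads in some library were found for 9 Hoxa, 10 Hoxb, 6 Hoxc and 9 Hoxd genes, 34 in all. Hoxa6, Hoxc8, Hoxc11 and Hoxc12 never reached 3 reads. Of the 38, Hoxd13, Hoxc13 and Hoxb9 had a mean log2 rpm of at least 0 (1.24, 0.29 and 0.052), with Hoxb2 just below (-0.087), and these 3 entered the main test. A lower limit of -2 admitted 15 members, down to Hoxc4 (-1.86), with Hoxb5 (-2.10) the first left out. Because a gene can pass such a limit through the libraries in which it is high, counts are given at both limits and for all 38 genes. Nons alone lay below the limit of 0 for Hoxc13 and Hoxb9, so these 2 entered the main test through knockdown libraries. The strand setting and annotation of the counting are not given in the sources used here, so reads of overlapping members (Hoxd3 with Hoxd4, Hoxb7 with Hoxb8, Hoxa3 with Hoxa4, Hoxa5 and Hoxa6) cannot be assigned with certainty.

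Summed over the 38 genes, Hox RNA was low on days 4 and 5, where the knockdown libraries lay on both sides of Nons, and then rose further in the knockdowns than in Nons. In Nons the sum was 11.5, 9.62, 9.10 and 14.8 rpm on days 4, 5, 6 and 7. The Smarcc1 hairpins gave 11.55, 8.13, 22.9 and 44.5 rpm (Smarcc1.6) and 11.6, 9.96, 29.6 and 39.3 rpm (Smarcc1.7). The Smarca4 hairpins gave 9.48, 9.81, 16.9 and 32.8 rpm (Smarca4.4) and 8.46, 16.2, 21.5 and 44.3 rpm (Smarca4.6). On days 6 and 7 every knockdown library lay above Nons of its day, by 1.86 to 3.26 times on day 6 and 2.22 to 3.01 times on day 7, whereas on day 4 the ratios were 0.736 to 1.01 and on day 5 0.845 to 1.69, with 2 and 3 of 4 libraries above Nons. Pooled over reads, days 4 and 5 gave 10.7 rpm in Nons, 10.3 in Smarcc1 knockdown and 11.5 in Smarca4 knockdown, and days 6 and 7 gave 12.2, 33.95 and 29.2 rpm. No test was run on these sums, and each day has a single Nons library.

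**Figure D1:**
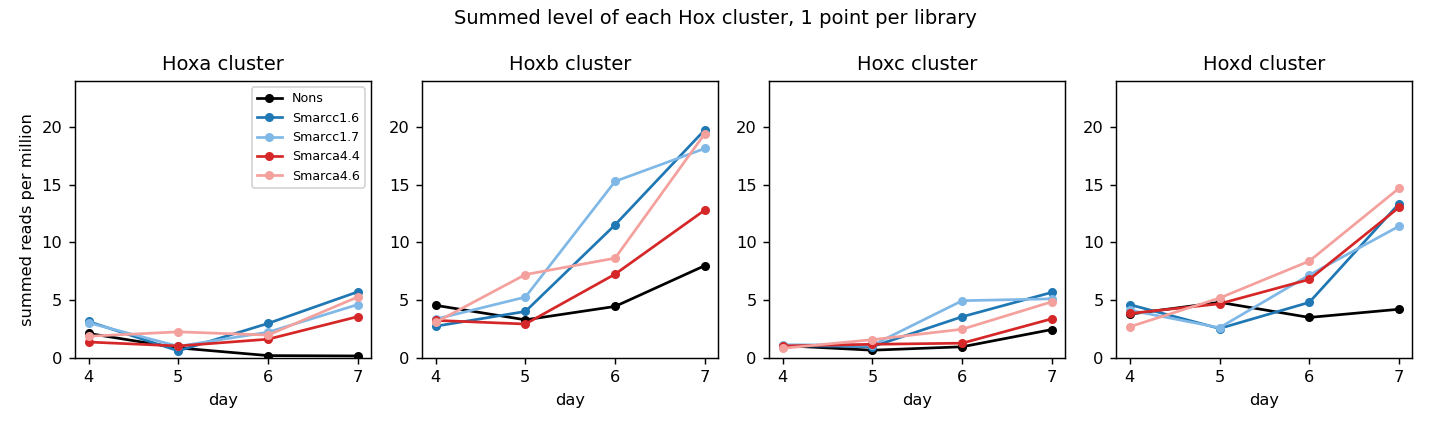
Summed rpm of the genes described in each Hox cluster (vertical axes) against day of differentiation (horizontal axes), with 1 line per culture series: Nons, 2 Smarcc1 hairpins and 2 Smarca4 hairpins, and 1 library per point. On days 6 and 7 all 4 knockdown series lie above Nons in every cluster; on day 4 they lie on both sides of Nons in Hoxa, Hoxc and Hoxd and below it in Hoxb.

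The clusters took part in this to different extents. The 10 Hoxa genes described went in Nons from 58 reads on day 4 to 17, 3 and 3 reads on days 5, 6 and 7 (2.11, 0.861, 0.191 and 0.160 rpm). In the knockdowns they were at 1.37 to 3.15 rpm on day 4, 0.600 to 2.25 rpm on day 5, 1.61 to 2.98 rpm on day 6 and 3.57 to 5.72 rpm on day 7, the last from 74 to 125 reads in each library. So the 10 Hoxa genes were close to unread in Nons from day 6 and were read in all 8 knockdown libraries of days 6 and 7. Hoxb, the cluster with most reads in Nons, went from 4.55 to 7.99 rpm in Nons, and the knockdowns, all 4 below Nons on day 4 (0.602 to 0.737 times), reached 12.8 to 19.8 rpm on day 7 (1.603 to 2.47 times). Hoxc was at 1.06 rpm on day 4 and 2.45 rpm on day 7 in Nons and 3.39 to 5.67 rpm on day 7 in the knockdowns (1.38 to 2.32 times). Hoxd stayed level in Nons, at 3.79, 4.81, 3.499 and 4.21 rpm, and reached 11.4 to 14.7 rpm in the knockdowns on day 7 (2.71 to 3.49 times).

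**Figure D2:**
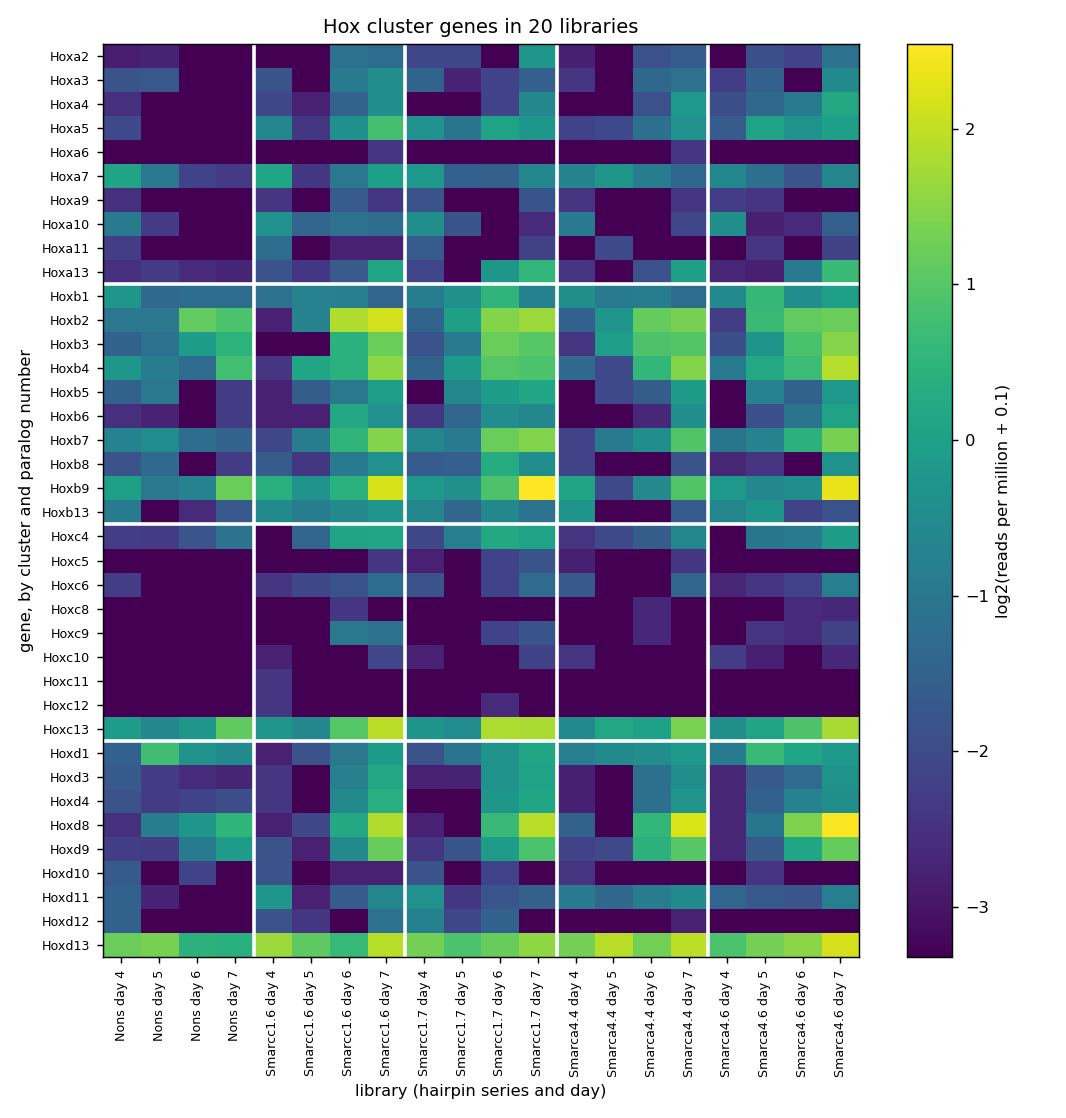
Expression of the Hox genes in each of the 20 libraries, as log2 of rpm plus 0.1 (colour), with genes in cluster order (vertical) and libraries by group and day (horizontal). Hoxd13 is coloured in every library, and most Hoxa genes are at or near the floor in Nons on days 6 and 7 but coloured in the knockdowns.

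The first comparison was over time: day 7 against day 4, averaged over Nons and both knockdowns. The knockdowns weigh more than Nons in this mean, so it is not the course of the Hox genes in Nons alone. Of the 3 members in the main test 2 rose, Hoxc13 and Hoxb9, where 35.7% of the 13296 genes tested rose and 28.8% fell. With the limit at -2, 10 of 15 rose (35.8% of 15424 genes) and 1 fell (28.2%), and with no filter 18 of 38 rose (23.0% of all entries) and 3 fell (18.6%). The members' median change was 1.83, 1.86 and 0.94 on the log2 scale in these settings, against 0.08, 0.10 and 0.30 over all genes. Many genes changed over these days, so a rise is read against those shares.

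Hoxd8, a gene of the middle of its cluster (chr2:74704615-74707933), had the largest rise among the 15 members. It was at 0.0728, 0.456, 0.763 and 1.33 rpm in Nons. On day 4 the knockdown libraries held 1, 1, 6 and 1 reads of Hoxd8 (0.0453 to 0.256 rpm), and on day 7 they held 77, 59, 99 and 94 reads (3.52 to 5.57 rpm). Every series was at its highest on day 7, above each day 4 value. The fitted change was 5.30 log2 (SE 0.51, limma with Benjamini-Hochberg adjusted p = 1.13e-06 at the limit of -2), a size that depends on the few reads of day 4. The neighbouring Hoxd9 rose by 3.82 log2 (SE 0.46). Among 3′ genes Hoxb3 and Hoxc4 rose by 3.72 and 2.95 log2, and Hoxb4 by 2.66 log2, at the same limit. In the mean over groups Hoxb7 rose by 1.86 log2 and Hoxd1 by 1.76 log2, but in Nons Hoxb7 fell from 0.510 to 0.266 rpm.

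Hoxb2, a gene of the hindbrain and of the 3′ part of Hoxb (chr11:96351632-96355689), was read at a raised level from day 6. It was at 0.400, 0.405, 2.10 and 1.76 rpm in Nons. In the Smarcc1 hairpins it was at 0.0456, 0.508, 3.47 and 4.30 rpm (Smarcc1.6) and 0.272, 0.901, 2.67 and 3.06 rpm (Smarcc1.7). In the Smarca4 hairpins it was at 0.256, 0.732, 2.13 and 2.42 rpm (Smarca4.4) and 0.110, 1.44, 2.096 and 2.25 rpm (Smarca4.6). Nons had its highest value on day 6 and the 4 knockdown series on day 7, and every library of days 6 and 7 was above every library of day 4. The change from day 4 to day 7 was 3.65 log2 (SE 0.47, limma with Benjamini-Hochberg adjusted p = 1.56e-05 at the limit of -2). Per kilobase of exon, Hoxb2 was the highest of the 38 genes on day 7 in Nons and in Smarcc1 knockdown (1.08 and 2.26 rpm per kb), and Hoxd8 in Smarca4 knockdown (1.84 rpm per kb).

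Hoxc13 and Hoxb9 rose although they lie towards the 5′ ends. Hoxc13, the end gene of Hoxc and known for its part in hair and nail, was at 0.837, 0.557, 0.763 and 2.08 rpm in Nons, and its knockdown libraries went from 0.598 to 0.730 rpm on day 4 to 2.47 to 3.75 rpm on day 7. Its change was 1.93 log2 (SE 0.26, limma with Benjamini-Hochberg adjusted p = 2.66e-05). Hoxb9 was at 0.910, 0.405, 0.509 and 2.24 rpm in Nons, and went from 0.769 to 1.19 rpm on day 4 to 1.83 to 5.74 rpm on day 7 in the knockdowns. Its change was 1.83 log2 (SE 0.39, adjusted p = 0.00118 in the same fit). In both genes each day 7 library was above every day 4 library.

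Hoxd13, the end gene of Hoxd that patterns digits and genitalia, had the highest mean log2 rpm of the 38 genes and did not pass the test (0.13 log2, SE 0.22, limma with Benjamini-Hochberg adjusted p = 0.633). In Nons it was at 2.22, 2.43, 1.27 and 1.23 rpm. In Smarca4.6 it was at 1.76, 2.38, 2.80 and 4.38 rpm, and in the other knockdown series it was at 2.39 to 3.06 rpm on day 4 and 2.81 to 3.80 rpm on day 7. So Nons was lower on day 7 than on day 4 while all 4 knockdown series were higher. Centring every library on its median gene, which shifts the all-gene median from 0.08 to -0.09 log2, turns the sign of the Hoxd13 change.

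The members that fell were 5′ or central genes with few reads. Hoxa7 (chr6:52214491-52221854) was at 0.983, 0.405, 0.127 and 0.107 rpm in Nons, and at 0.512 to 1.00 rpm on day 4 and 0.275 to 0.915 rpm on day 7 in the knockdowns. The value was lower on day 7 in all 5 series, by -1.32 log2 in the mean (SE 0.44, limma with Benjamini-Hochberg adjusted p = 0.0174 at the limit of -2). Without Nons the change was -0.38 (adjusted p = 0.491), and the call was also lost without Smarcc1.7 or without Smarca4.4 (-1.27 and -1.18). Hoxa10 and Hoxd10 fell by 2.32 and 1.50 log2 in the fit of all entries (adjusted p = 0.00328 and 0.00272), but Hoxa10 had 10 to 15 reads in any library of day 4 and at most 7 on day 7, and Hoxd10 no more than 6 reads in any library.

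The direction of the change followed the paralog number in part. Over the 34 members with 3 reads in a library, the median change from day 4 to day 7 was 1.97 log2 in the 11 genes of paralog groups 1 to 4, 1.30 in the 13 of groups 5 to 9 and -0.84 in the 10 of groups 10 to 13. The rank correlation of paralog number with the change was -0.42 over all 34 (Pearson -0.39), and -0.23 in Hoxa (n = 9), -0.50 in Hoxb (n = 10), -0.26 in Hoxc (n = 6) and -0.53 in Hoxd (n = 9). These are descriptions across genes that share libraries, a cluster and, in places, reads. Of the 34, 24 had their highest mean level on day 7, 8 on day 4 (Hoxd12, Hoxd11, Hoxd10, Hoxa7, Hoxa9, Hoxa10, Hoxa11 and Hoxb13) and 2 on day 5 (Hoxd1 and Hoxb1). Of the genes of groups 10 to 13, Hoxd13, Hoxc13, Hoxa13 and Hoxc10 had their highest mean on day 7. In all 5 series 10 members were higher on day 7 than on day 4 (Hoxd9, Hoxd8, Hoxd1, Hoxb9, Hoxb6, Hoxb4, Hoxb3, Hoxb2, Hoxc13 and Hoxc4), and 2 were lower (Hoxa7 and Hoxa10). Of all 18966 genes with 3 reads in a library 35.1% were higher in all 5 series and 29.8% lower, so neither count of members was above the share of all genes. In Nons taken alone the highest day was day 7 for 7 members, day 4 for 12, day 5 for 6 and day 6 for 1.

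**Figure D3:**
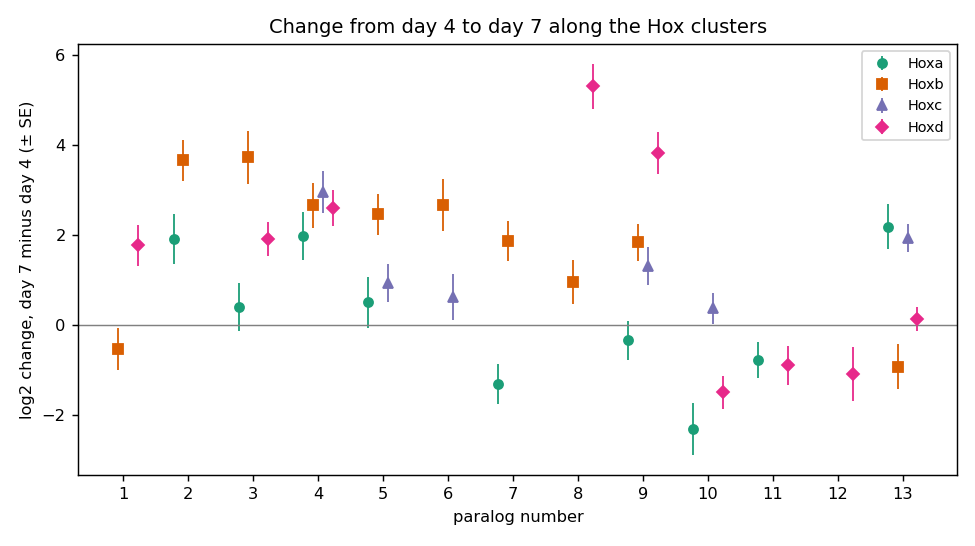
Change of each Hox gene from day 4 to day 7 on the log2 scale (vertical axis, mean over groups from the fit of all entries) against its paralog number (horizontal axis), coloured by cluster, for members with at least 3 reads in a library. Genes of groups 1 to 4 lie mostly above 0 with Hoxb3 the highest of them at 3.72, Hoxd8 of groups 5 to 9 lies above all others at 5.30, and genes of groups 10 to 13 lie on both sides of 0.

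The level by paralog group shows the same split between groups of libraries. Genes of groups 1 to 4 summed to 3.24 rpm on day 4 and 6.13 rpm on day 7 in Nons, and to 11.3 to 15.3 rpm on day 7 in the knockdowns. Groups 5 to 9 went from 3.42 to 5.12 rpm in Nons, and reached 13.2 to 19.6 rpm in the knockdowns. Groups 10 to 13 went from 4.84 to 3.57 rpm in Nons and were at 8.19 to 10.6 rpm in the knockdowns on day 7. In each of the 3 bands every knockdown library of day 7 was above Nons.

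The next comparisons asked whether depletion of Smarcc1 or of Smarca4 moves the Hox genes, as the mean over days 4 to 7 of knockdown against Nons. Both use the same 4 Nons libraries, so their values are set side by side and not counted as separate evidence. In the main test 0 of 3 members passed in either knockdown by limma with Benjamini-Hochberg adjustment, where 7.54% of genes rose in Smarcc1 knockdown and 4.75% in Smarca4 knockdown. At an unadjusted p under 0.05 there were 3 members in Smarcc1 and 1 in Smarca4 knockdown, and limma-voom also called 0. At the limit of -2, 2 of 15 members rose in Smarcc1 knockdown (9.11% of genes) and 1 of 15 in Smarca4 knockdown (5.12%). With no filter 5 of 38 rose (5.41% of entries) and 3 of 38 (2.49%), and no member fell in any of these. The median of the members was 0.60, 0.49 and 0.70 log2 in Smarcc1 knockdown and 0.41, 0.62 and 0.54 in Smarca4 knockdown, against medians of all genes between -0.01 and 0.24.

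The 3 members of the main test were higher without passing in Smarcc1 knockdown (Hoxb9 0.89, Hoxc13 0.60 and Hoxd13 0.44 log2, limma with Benjamini-Hochberg adjusted p = 0.158, 0.149 and 0.216). In Smarca4 knockdown Hoxd13 was close to the threshold (0.73 log2, adjusted p = 0.0507), with Hoxc13 at 0.41 and Hoxb9 at 0.03 log2.

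Hoxa5, a central gene that patterns the lung and cervical vertebrae, had the largest fitted differences of the 15 members in both knockdowns. Nons held 4, 0, 0 and 0 reads of Hoxa5 over days 4 to 7. Smarcc1 knockdown held 12, 2, 15 and 36 reads (Smarcc1.6) and 15, 8, 15 and 12 reads (Smarcc1.7), and Smarca4 knockdown 3, 1, 6 and 15 reads (Smarca4.4) and 4, 22, 11 and 15 reads (Smarca4.6). From day 5 on every knockdown library had Hoxa5 reads and no Nons library had any. Pooled over days 6 and 7, Hoxa5 was at least 11.8-fold higher in Smarcc1 knockdown and at least 7.52-fold higher in Smarca4 knockdown than in Nons, counting 3 reads for the pooled Nons. Hoxa5 entered the fit at the limit of -2 through the knockdown libraries, since Nons alone lay below it. Its p-values are thus no independent support. The fitted differences were 3.11 log2 in Smarcc1 knockdown (limma with Benjamini-Hochberg adjusted p = 0.00194) and 2.59 log2 in Smarca4 knockdown (adjusted p = 0.0115). Both depend on the lowest value given to 0 reads. With a common lowest value the second was 1.54 (adjusted p = 0.0795), with the culture series as a block its adjusted p was 0.0697, and without Smarca4.6 it was 1.98 (adjusted p = 0.118).

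Hoxb13, the 5′ end gene of Hoxb and a gene of the tail and prostate, rose in Smarcc1 knockdown at the limit of -2. Nons alone lay below that limit, so Hoxb13 also passed it through knockdown libraries. It had 12, 0, 1 and 4 reads in Nons, 6 to 16 reads in every Smarcc1 library, and 17, 0, 0 and 5 (Smarca4.4) and 10, 17, 2 and 3 reads (Smarca4.6) in Smarca4 knockdown. The difference from Nons was 1.96 log2 in Smarcc1 knockdown (limma with Benjamini-Hochberg adjusted p = 0.0137), and the call was lost with the series as a block (adjusted p = 0.0801), with a common lowest value (1.31) and without Smarcc1.6 or Smarcc1.7 (adjusted p = 0.103 and 0.0678). With no filter Hoxd11, Hoxa13 and Hoxb6 were also higher in Smarcc1 knockdown (1.66, 1.90 and 1.85 log2) and Hoxd11 and Hoxa4 in Smarca4 knockdown (2.14 and 2.19 log2), all genes of 0 to 7 reads in any Nons library.

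Since the sums parted on days 6 and 7, the contrasts were also taken over these days alone. This choice was made after the values had been seen, so its p-values are not independent evidence. In the main test 1 of 3 members rose in Smarcc1 knockdown, Hoxc13 (8.33% of genes rose), and 1 of 3 in Smarca4 knockdown, Hoxd13 (3.63%). Hoxc13 had entered that test through knockdown libraries, which also limits its call. At the limit of -2 the counts were 5 of 15 (10.3% of genes) and 3 of 15 (4.21%), and with no filter 14 of 38 (6.16% of entries) and 8 of 38 (2.09%). No member fell. The calls of Hoxc13 in Smarcc1 knockdown and of Hoxd13 in Smarca4 knockdown were lost without either of their hairpins (adjusted p = 0.0675 and 0.233, and 0.0655 and 0.122, by limma with Benjamini-Hochberg adjustment). Hoxc13 was also lost with no filter, after centring and with the series as a block. Among the members called with no filter in both contrasts were Hoxa4, Hoxa5, Hoxa13, Hoxb5, Hoxb7, Hoxd3 and Hoxd11, and both contrasts share the Nons libraries.

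**Figure D4:**
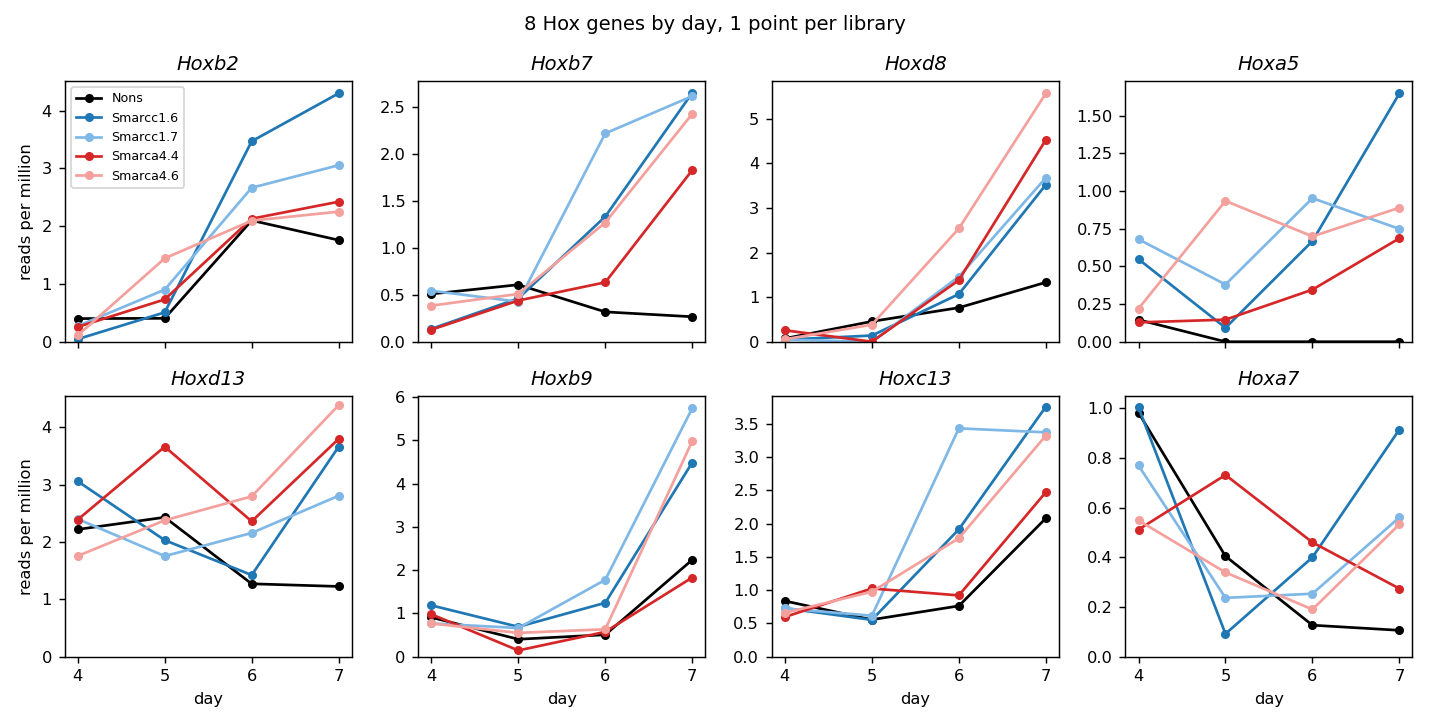
Levels in rpm (vertical axes) of single Hox genes on days 4 to 7 (horizontal axes), 1 line per culture series and 1 library per point. The Hoxb7 lines of the knockdowns reach 1.83 to 2.65 rpm on day 7 against 0.266 rpm in Nons, and the Nons line of Hoxa5 stays at 0 from day 5.

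Hoxb7, a trunk gene of the middle of Hoxb, was lower on day 7 than on day 4 in Nons and higher in the 4 knockdown series. The difference between these changes did not pass the test in either knockdown, at the limit of -2 or with no filter. Each Nons value rests on 1 library. In Nons it was at 0.510, 0.608, 0.318 and 0.266 rpm. In the knockdowns it was at 0.128 to 0.544 rpm on day 4, 0.427 to 0.510 rpm on day 5, 0.633 to 2.22 rpm on day 6 and 1.83 to 2.65 rpm on day 7. All 4 knockdown libraries were below Nons on day 5 and all 4 above it on days 6 and 7. Pooled over days 6 and 7 the ratio to Nons was 7.48 in Smarcc1 knockdown (95% exact interval 3.96 to 15.9) and 5.38 in Smarca4 knockdown (2.82 to 11.5), intervals that cover counting error only. In the contrasts over days 6 and 7 at the limit of -2, the differences were 2.87 log2 (limma with Benjamini-Hochberg adjusted p = 0.00506) and 2.24 log2 (adjusted p = 0.0375). These contrasts were chosen after the values had been seen. The second call was lost with the series as a block, with limma-voom and in each fit without 1 hairpin.

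For the other members the pooled ratios of days 6 and 7 show how far the rise extended. Hoxd13 was 2.01 times Nons in Smarcc1 knockdown (1.44 to 2.87) and 2.70 times in Smarca4 knockdown (1.95 to 3.83), and Hoxd8 was at 2.24 times and 3.33 times. Larger ratios belonged to genes with next to no reads in Nons: Hoxd3 had 2 Nons reads and a ratio of 13.6 in Smarcc1 knockdown (3.60 to 115), and Hoxa13, with 2 Nons reads, 13.8 in Smarcc1 knockdown and 13.2 in Smarca4 knockdown. Over days 6 and 7, 13 of the 34 members had no read in Nons among 34483128 reads. The Nons total is smaller than that of either knockdown, and genes picked for having no read in Nons can only be higher elsewhere, so no more is read from these 13 than their bounds. Hoxa4 was at least 4.68-fold and at least 7.20-fold higher than Nons in Smarcc1 and Smarca4 knockdown, Hoxa3 at least 4.53-fold and 3.68-fold, and Hoxd11 at least 3.62-fold and 5.12-fold. The pooled level was above Nons for 33 of 34 members in Smarcc1 knockdown (63.8% of the 18966 genes with 3 reads in a library) and for 32 of 34 in Smarca4 knockdown (57.8% of these genes). Hoxa2, Hoxa4, Hoxa9, Hoxa13, Hoxb6, Hoxc5, Hoxc9 and Hoxc10 reached 3 reads only in knockdown libraries and could hardly lie below Nons. The same holds for other genes, but how many of the 18966 was not counted. The shares of members and of all genes are thus not matched in this respect.

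Other members had ratios nearer to 1 in one or both knockdowns, and a difference between the knockdowns on days 6 and 7 was not tested. Hoxd1, the 3′ end gene of Hoxd, was at 0.255, 1.57, 0.700 and 0.586 rpm in Nons, and its pooled ratio on days 6 and 7 was 1.11 in Smarcc1 knockdown (0.666 to 1.92) and 1.24 in Smarca4 knockdown (0.748 to 2.14). On days 4 and 5 Hoxd1 had 17 reads in Smarcc1 knockdown against 38 in Nons, a ratio of 0.244 (0.129 to 0.442), and the ratio in Smarca4 knockdown was 0.984. In the fit over all days Hoxd1 was -0.96 log2 in Smarcc1 knockdown, which did not pass (limma with Benjamini-Hochberg adjusted p = 0.167). Hoxd8 was also low on days 4 and 5 in Smarcc1 knockdown, with 5 reads against 11 (ratio 0.248, 0.0674 to 0.773). Hoxb2 was 1.81 times Nons in Smarcc1 knockdown on days 6 and 7 and 1.17 times in Smarca4 knockdown (0.874 to 1.58). Hoxb9 was 2.23 times and 1.38 times (0.996 to 1.95), the latter 1.33 times over days 4 to 7 (1.03 to 1.75), and Hoxb13 3.99 times and 0.960 times.

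Day by day, the members whose 4 knockdown libraries all lay on 1 side of Nons were counted beside the same count over all genes with 3 reads in a library of that day. On day 4, 3 of 30 members were higher in all 4 (28.1% of genes) and 9 of 30 were lower (24.7% of genes), the latter Hoxd10, Hoxd3, Hoxd4, Hoxb5, Hoxb4, Hoxb3, Hoxb2, Hoxb1 and Hoxc13. On day 5, 4 of 27 were higher (14.8% against 15.5%) and 4 lower (14.8% against 11.1%). On day 6, 20 of 30 were higher (66.7% against 28.5%) and 0 lower (15.5% of genes). On day 7, 24 of 32 were higher (75.0% against 36.7%) and 0 lower (19.1% of genes). The share of members above Nons was thus below the background on day 4, near it on day 5 and above it on days 6 and 7. Each day rests on 1 Nons library, and a member or gene could enter through the knockdown libraries alone. The background was not matched to the low level of the members. The Nons total was the largest of its day on day 4 and the smallest on day 6, and the part of depth was not tested.

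The 2 knockdowns were compared directly, over days 4 to 7. No member of the main test differed (limma with Benjamini-Hochberg adjustment; 4.09% of genes differed, 1 member had an unadjusted p under 0.05, and limma-voom also called 0), and none of 15 did at the limit of -2 (4.72% of genes; 4 members at an unadjusted p under 0.05; limma-voom called 1, Hoxd1, lower in Smarcc1 knockdown). With no filter 1 of 38 differed (2.64% of entries): Hoxb8, a trunk gene, was higher in Smarcc1 knockdown by 1.62 log2 (SE 0.37, adjusted p = 0.0250). Its reads over days 4 to 7 were 5, 2, 10 and 15 (Smarcc1.6), 5, 5, 18 and 10 (Smarcc1.7), 3, 0, 0 and 4 (Smarca4.4) and 1, 2, 0 and 12 (Smarca4.6). On day 6 both Smarcc1 libraries had Hoxb8 reads and both Smarca4 libraries had none, while on day 7 the hairpins overlapped. Hoxb8 shares its 3′ part with Hoxb7, whose reads were also more numerous in Smarcc1 knockdown on day 6.

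Whether the change from day 4 to day 7 differed between a knockdown and Nons was tested as a difference of changes. In Smarcc1 knockdown 0 of 3 and 0 of 15 members passed (0.459% and 0.473% of genes), with 0 and 3 members at an unadjusted p under 0.05, and limma-voom called 0. With no filter 1 of 38 passed (0.173% of entries), Hoxd3, with a difference of 5.98 log2 (SE 1.00, limma with Benjamini-Hochberg adjusted p = 0.0205). Hoxd3 had 6, 2, 1 and 1 reads in Nons, against 2, 0, 11 and 23 (Smarcc1.6) and 1, 1, 11 and 15 (Smarcc1.7), so it went down in Nons and up in the knockdown, and the size of the difference depends on these few reads. In Smarca4 knockdown 0 of 3, 0 of 15 and 0 of 38 passed (0.0827%, 0.0519% and 0.00385% of genes), with 1, 4 and 14 members at an unadjusted p under 0.05, and limma-voom called 0. At the limit of -2 the members' median difference was 2.11 log2 in Smarcc1 knockdown (0.17 over all genes) and 1.63 in Smarca4 knockdown (0.07). All members share the same Nons libraries, so they are not replicates of each other. Hoxa5, Hoxb13 and Hoxc4 lay below this limit in Nons and passed it through knockdown libraries.

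Genes that work with the Hox genes were followed as lists, to be read against the shares of all genes in the main test: 35.7% rose and 28.8% fell with time, and 7.54% were higher in Smarcc1 and 4.75% in Smarca4 knockdown. Of 8 TALE cofactors, Pbx, Meis and Pknox homeodomain proteins that bind DNA with Hox proteins, 7 were tested and 4 rose and 2 fell from day 4 to day 7, Pbx3 rising by 0.61 log2. Meis2 rose in both knockdowns (1.25 log2 in Smarcc1 and 1.22 in Smarca4 knockdown) and Meis1 in Smarca4 knockdown (1.21), with 1 and 2 of 7 called. Of 18 upstream regulators 12 were tested, and 3 rose and 7 fell with time, with Wnt8a, Cdx4, Gbx2 and Aldh1a2 at -4.28, -3.29, -3.90 and -3.19 log2. In Smarcc1 knockdown 6 of the 12 were higher than in Nons, among them Aldh1a2 (2.48 log2), the enzyme that makes retinoic acid, Cdx4 (1.98), a direct regulator of Hox clusters, Cyp26a1 (1.67), which degrades retinoic acid, and Wnt8a (1.601). In Smarca4 knockdown 3 were higher, Aldh1a2 (1.78), Cdx4 (1.27) and Wnt8a (0.96), and Otx2, a gene of the forebrain, was lower in both (-0.45 and -0.60). Aldh1a2, Cdx4 and Wnt8a thus fell with time, when 18 of 38 Hox genes rose, and were higher in both knockdowns than in Nons. Of 5 trithorax-group subunits and H3K27 demethylases tested, 3 fell with time and 1, Ash2l, was higher in each knockdown (0.73 and 0.58 log2). Among 12 tested genes flanking the clusters, 4 rose (35.7% of all genes) and 5 fell (28.8%) with time, and Calcoco2, beside Hoxb, was higher in both knockdowns (2.03 and 1.37 log2) with Ttll6 in Smarcc1 knockdown (1.01). The other flanking genes did not pass, and the median of the flanking list was 0.00 and 0.09 log2.

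Of the transcripts embedded in the clusters, Hoxb3os, antisense over Hoxb3 and Hoxb2, had 1020 reads and rose with time by 3.69 log2. Gm53, a Hoxb entry with 1252 reads, was at 5.39, 1.17, 1.27 and 7.25 rpm in Nons over days 4 to 7, and in the knockdowns at 4.395 to 4.75 rpm on day 4 and 1.78 to 3.87 rpm on day 7. Its day 7 level was thus below Nons in all 4 knockdown libraries, where the Hoxb sum was above it, but neither its change with time (-0.32 log2) nor its differences from Nons passed the test (-0.07 and 0.04 log2, limma with Benjamini-Hochberg adjusted p = 0.262, 0.879 and 0.948). Without a known strand setting, reads of Hoxb3 and Hoxb3os cannot be told apart where they overlap. The rows of Mir10a, Mir196a-2 and Mir615 had 0 reads and Mir196a-1 had 33.

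Markers of other cells also differed between the groups. The pluripotency sum on day 7 was 911 rpm in Nons, 1235 to 1638 rpm in Smarcc1 knockdown and 1077 to 1115 rpm in Smarca4 knockdown. Of these 8 genes 7 fell with time, and over days 4 to 7, 5 were higher in Smarcc1 and 3 in Smarca4 knockdown. On days 6 and 7 alone 5 were higher in Smarcc1 knockdown, and in Smarca4 knockdown 2 were higher and 1, Tdgf1, was lower. Neural markers summed to 16.9 rpm on day 7 in Nons against 32.2 to 46.5 and 25.4 to 36.4 rpm, mesoderm markers to 11.99 rpm against 16.1 to 23.5 rpm over both knockdowns, and endoderm markers to 3.14 rpm against 10.2 to 11.7 and 5.49 to 6.10 rpm. The trophoblast sum of day 7 was lower in the knockdowns, at 187 rpm in Nons against 110 to 115 and 140 to 184 rpm. Most of it was Krt7, which reached 154 rpm in Nons, 69.6 rpm in Smarcc1 and 134 rpm in Smarca4 knockdown. On days 4 and 5 this sum was above Nons in every knockdown library, at 25.2 to 36.5 against 17.6 rpm on day 4. Fibroblast markers were on day 7 at 55.6 rpm against 102 to 125 and 28.9 to 45.0 rpm. Of the markers abundant enough to test, 1 of 3 neural (Sox1) and 1 of 1 endoderm marker (Gata4) were higher in both knockdowns over days 4 to 7. Of 2 mesoderm markers Twist1 was lower in Smarcc1 and Hand1 higher in Smarca4 knockdown. Of 4 trophoblast markers Tfap2c was higher in both and Krt7 lower in Smarcc1 knockdown. Of 5 fibroblast markers Dcn was lower in both and Pdgfra and Col1a1 were higher in Smarcc1 knockdown. Prl3d1, a trophoblast giant cell hormone, was at 0 in all 20 libraries, and Mesp1, Elf5 and Lum stayed under 1 rpm. The part of these cells in the Hox differences was not tested.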

How the data were processed

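RNA-seq of 20 libraries was analysed. Per the labels and the study's methods, the authors used trim_galore for trimming and HISAT2 or TopHat for alignment to mm10, and deposited log2 rpm values from SeqMonk, in which a gene without reads carries 0.9 of a read. 100% of values below 1000 reads came out whole (tolerance 0.02 reads). The fit used limma 3.58.1 in R 4.3.3 (lmFit, eBayes with trend) on all 20 libraries, with a mean for each of 12 combinations of group and day (8 residual degrees of freedom), on the 13296 genes with mean log2 rpm from 0 upwards, with Benjamini-Hochberg adjustment and a threshold of 0.05. Contrasts were averaged over days, or over groups for day 7 against day 4. Named members were those in that fit, those called at any filter, and those a statement on a cluster turns on, and from each list up to 4 called genes by smallest p. Pooled ratios were computed from summed reads with exact 95% intervals; motifs and sums with Python 3.11.15. Exon lengths came from GENCODE coding-gene models. The members and gene lists were chosen with earlier results of these data known. For 1 member and 1 gene of the cofactor list values are not reported here, and sums and counts leave them out; the fits keep every entry. Limma was tested on simulated data. Contrasts on days 6 and 7, and other settings combined with the limit of -2, were chosen after seeing the data. Alternatives were other filters, 1 added to rpm, a common lowest value, centring, limma-voom on recovered reads, the replicate block, group and day as additive factors, and leaving out each series.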

Additional observations from a re-analysis of the deposited data

Results flagged for a closer look

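Hoxb8 was set apart because a test of the difference between the 2 knockdowns passed when no filter on low values was used: it was higher in Smarcc1 than in Smarca4 knockdown by 1.62 log2 (limma with Benjamini-Hochberg adjusted p = 0.0250). It rests on 0 to 18 reads per library. Hoxd3 was set apart because its change from day 4 to day 7 differed between Smarcc1 knockdown and Nons by 5.98 log2 in the same fit (adjusted p = 0.0205), with 1 to 6 reads in the Nons libraries. No group had enough libraries of a day to test for a library far from the others.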

How the results depend on the processing

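Most members have few reads, so the filter on low values moved the counts most. With the limit at -2 the members called were 11 for day 7 against day 4, 2 for Smarcc1 and 1 for Smarca4 knockdown against Nons, and 5 and 3 for the same contrasts on days 6 and 7. With no filter they were 21, 5, 3, 14 and 8, with 1 each between the knockdowns and for the change over time in Smarcc1 knockdown against Nons. With a mean of at least 10 rpm no member was left to test (0 called). For Smarcc1 knockdown on days 6 and 7 the 1 call became 0 after centring, 0 with the replicate block and 3 without the library of fewest reads. At the limit of -2 the replicate block gave 1 call in Smarcc1 and 0 in Smarca4 knockdown against Nons and 2 in Smarcc1 knockdown on days 6 and 7. In that last contrast limma-voom and centring gave 3 each and leaving out the library of fewest reads gave 8. A common lowest value gave 0 in Smarca4 knockdown, and between the knockdowns limma-voom and leaving out the library of fewest reads gave 1 each. Leaving out each series gave 2 to 3 calls over time, 0 in Smarcc1 and in Smarca4 knockdown against Nons, 0 to 2 and 0 to 1 on days 6 and 7, and 0 in the 3 other contrasts. At the limit of -2 these were 10 to 12, 1 to 3, 0 to 1, 2 to 6 and 0 to 2, with 0 to 1 between the knockdowns. The cause of these changes was not tested. The replicate block was each hairpin's or Nons' run of 4 libraries (correlation 0.217), since hairpin numbers pair no cultures. No called member changed direction under any alternative run. Depth limits members of under 3 reads, and the single Nons series limits every contrast with Nons.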

Other observations

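The ParaHox genes Gsx1, Gsx2 and Pdx1, relatives of the Hox genes outside the 4 clusters, were below the main limit. Evx1, Evx2 and Mnx1 were below it too. Gsx1, a gene of neural progenitors, was at 0 to 0.87 rpm in the 4 Nons libraries. It was at 2.99 to 6.39 rpm in the 8 Smarcc1 knockdown libraries and 0.09 to 1.32 rpm in the 8 Smarca4 knockdown libraries. How many of all entries have ranges set apart in this way was not counted. In the limma fit of all entries with Benjamini-Hochberg adjustment Gsx1 was higher in Smarcc1 knockdown than in Nons by 4.99 log2 and than in Smarca4 knockdown by 3.65 log2. Gsx1 had 0 reads in Nons on days 6 and 7, so the size of the first difference depends on the lowest value given to 0 reads. Pdx1 was higher in Smarcc1 knockdown by 3.02 log2. The summed level of the 6 Evx, Gsx, Pdx1 and Mnx1 genes, most of it Gsx1 in Smarcc1 knockdown, was 4.71 to 9.84 rpm there over all days. It was 1.15 to 2.68 rpm in Smarca4 knockdown and 0.254 to 1.49 rpm in Nons. Mnx1 had like medians in Smarcc1 knockdown and Nons (0.453 and 0.482 rpm), and Evx2 had no read in the knockdowns.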
